A study of Mus musculus with 6 samples.

Results

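The genes of the major histocompatibility complex (MHC) and of antigen presentation were examined in RAW 264.7 cells, a mouse macrophage-like line from a BALB/c tumour induced by Abelson leukaemia virus. A gene was taken if an array probe named it alone and its symbol began with H2-, or if it was 1 of 18 listed genes of peptide processing, loading, class I-like chains and MHC transactivation. A probe was found for 40 of the 42 genes, 24 of them H2- genes, among 13840 genes with such a probe on the array. Each of the 40 had exactly 1 probe. Psmb9 and Nlrc5 were not analysed here.

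Total RNA from 6 samples was hybridized to ABI mouse genome arrays. The 3 LPS samples were stimulated with 1 µg/mL lipopolysaccharide (LPS), a bacterial cell wall component that activates macrophages. The 3 15-HETE + LPS samples received 40 µM 15(S)-HETE, a hydroxylated arachidonic acid product, immediately before the same dose of LPS. Both groups were harvested at 24 h, each sample pooled the cells of 6 wells, and neither group was unstimulated, so every difference is one between LPS-stimulated cells with and without 15-HETE.

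Class I molecules display peptides from the cytosol to CD8+ T cells and are built from an H2 heavy chain and beta-2 microglobulin. Their peptides are cut by the proteasome, carried into the endoplasmic reticulum by the Tap transporter, and loaded there with the help of tapasin. Class II molecules display peptides from the endosomal route to CD4+ T cells, travel with the invariant chain Cd74, exchange its remnant for peptide through H2-DM, and are transcribed under the control of the transactivator Ciita together with the RFX complex. Interferons raise class I genes in most cells, and macrophages raise class II genes mainly after interferon gamma.

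The class I chains that turned out to differ between the groups and those that did not were set side by side by their promoters, as 120 bases running from position -130 to position -11 before the annotated start. Sequences are those of RefSeq on build GRCm38.p6 from C57BL/6J, whose MHC haplotype is not that of BALB/c, and each is written in the gene's own direction. H2-K1 (chr17:34000358-34000477, minus strand) and H2-Q7 (chr17:35439025-35439144, plus strand) had means within their spread. H2-Q2 (chr17:35342177-35342296, plus strand) and H2-T23 (chr17:36032712-36032831, minus strand) were higher with 15-HETE in all samples. Capitals mark the letters AANNGAAA, which interferon regulatory factors can bind, and CCAAT, the letters of the NF-Y box, on either strand.
H2-K1: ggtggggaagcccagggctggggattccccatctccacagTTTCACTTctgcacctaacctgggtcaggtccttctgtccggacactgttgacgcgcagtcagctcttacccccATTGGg
H2-Q7: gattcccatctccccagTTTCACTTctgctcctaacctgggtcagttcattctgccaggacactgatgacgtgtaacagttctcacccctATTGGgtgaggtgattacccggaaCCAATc
H2-Q2: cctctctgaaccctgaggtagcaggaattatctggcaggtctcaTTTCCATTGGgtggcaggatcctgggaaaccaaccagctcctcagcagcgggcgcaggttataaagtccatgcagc
H2-T23: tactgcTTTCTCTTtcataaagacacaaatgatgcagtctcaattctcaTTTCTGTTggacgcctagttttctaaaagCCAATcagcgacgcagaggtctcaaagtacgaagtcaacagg

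All 4 promoters, which were chosen with the values known, held both sets of letters. In H2-Q2 the capitals are 1 run because the 2 motifs overlap, and in H2-T23 the letters AANNGAAA occurred at 2 places. A promoter window of 300 bases was given for 30 of the 40 genes. For these 30, 1 window was taken per gene, while the share over all windows counts every window given. The compared shares therefore differ in unit. The letters AANNGAAA were chosen after values or windows had been seen, so their share is a description only. AANNGAAA was found in 17 of these 30 (56.7%), against 23.9% of all 32851 windows. Among the 17 were 10 of 14 class I chains and 2 of 5 class II chains. CCAAT was found in 22 of 30 (73.3%), among them 12 of 14 class I chains and 4 of 5 class II chains, against 37.4% of windows. The fuller interferon response letters GAAANNGAA, which overlap AANNGAAA in B2m, Erap1 and H2-T23, were found in 3 of 30 (10%, against 8.56%), and the letters TTCNNNGAA of the interferon gamma activated site in 3 of 30 (10%, against 8.30%). A match of letters is a description of the window and not a binding site.

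The values were quantile-normalized intensities, in which all arrays share 1 distribution with a median of 837 and a highest value of 3047298. No detection calls came with them. Olfactory receptor genes, which macrophages should not express, therefore served as a guide to dim signal, and the mean log2 intensity that 95% of their 747 probes did not exceed corresponds to an intensity of 4061. Of the 40 genes, 20 were above that level and 20 were not, by the mean over all 6 samples. A change between the groups thus enters this split, since H2-DMa was above 4061 in the 15-HETE + LPS samples alone and H2-M2 was above it in all LPS samples. Log2 intensities correlated at 0.972 to 0.979 among LPS samples, at 0.955 to 0.962 among 15-HETE + LPS samples and at 0.943 to 0.962 between the groups. Which arrays were hybridized together is not named, so array set and treatment cannot be told apart.

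Among the 40 genes, Cd74 rose with 15-HETE in limma at an adjusted p under 0.05, and 0 genes fell. Over the array 0.509% of 33012 probes were called higher and 0.442% lower. At an unadjusted p under 0.05, limma found 9 of the 40 higher (22.5%) and 5 lower (12.5%), where the array had 8.62% of probes higher and 11% lower. The variance expected of a probe was then allowed to follow its intensity (limma with the intensity trend). In this fit 8 genes were called higher, namely Cd74, Tapbp, Psmb8, H2-T23, H2-Q2, H2-Q8, H2-DMa and Mr1, and 0 were called lower. Over the array the fit called 3.87% of probes higher and 4.96% lower. Among probes above the olfactory level it called 9.63% higher and 12.1% lower, and 7 of the 20 members there higher. The 2 groups did not overlap for 16 genes, 9 of them higher and 7 lower in 15-HETE + LPS. On the array 13.7% of probes were higher without overlap and 16.3% were lower. Above the olfactory level these shares were 25.4% and 28.1%, beside 8 higher and 2 lower of the 20 members there. H2-DMa is among both the 7 and the 8, and it entered the filter through its treated samples alone. H2-M2, lower without overlap, fell out of the filter through its treated samples. The median log2 fold change of the 40 genes was 0.15, against 0.01 over all probes, with 24 genes above 0 and 16 below. Of 6 loading controls (Actb, Gapdh, Ywhaz, Hprt, Tbp and Ppia), all above the olfactory level, the trend called 1 higher and 0 lower. The called control was Tbp, at a log2 fold change of 0.49 (limma adjusted p 0.048 with the trend). Without overlap, 1 control was higher (Tbp) and 3 were lower (Ywhaz, Hprt and Ppia). The plot of levels and differences shows every member.

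**Figure D1:**
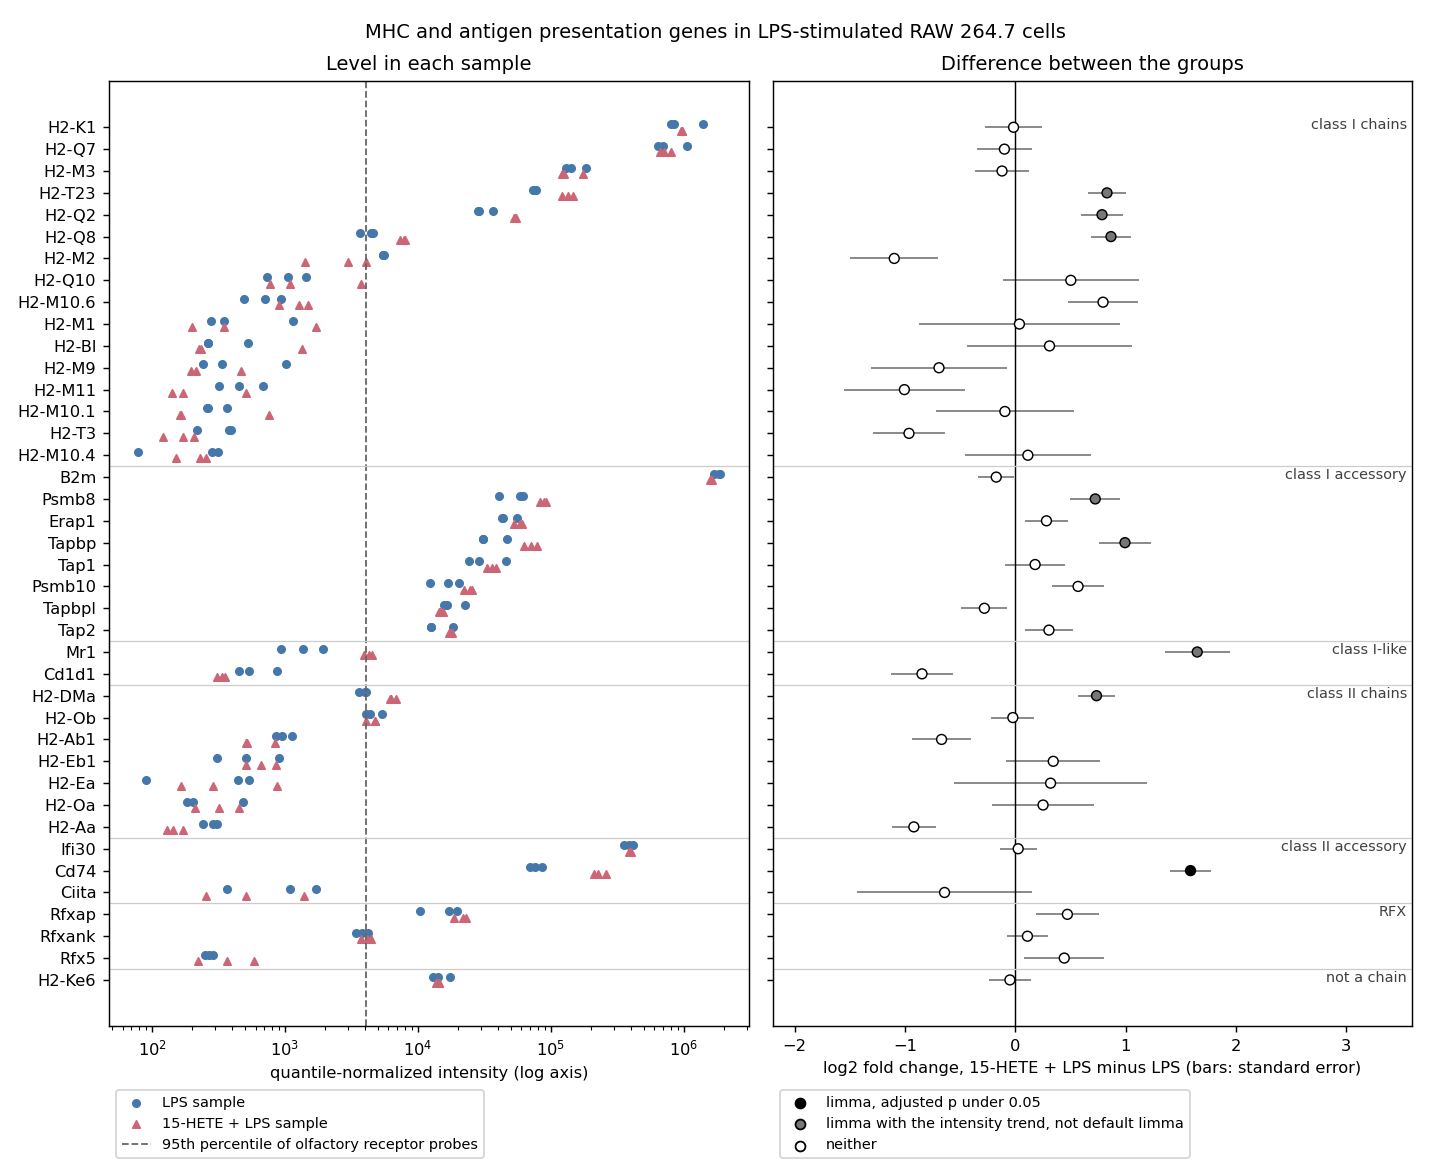
Left, quantile-normalized intensity of each of the 40 genes in each of the 6 samples on a log axis, with circles for LPS, triangles for 15-HETE + LPS and a dashed line at the 95th percentile of olfactory receptor probes. Right, log2 fold change of 15-HETE + LPS over LPS with its standard error (n = 3 per group); the filled black point is Cd74, at 1.59, and the 7 grey points passed limma with the intensity trend but not limma with its default prior.

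Among the 16 class I heavy chains, 3 were higher in every 15-HETE + LPS sample than in any LPS sample (18.8%, beside 13.7% of probes) and 2 were lower (12.5%, beside 16.3%). H2-T23 encodes Qa-1, the ligand of CD94/NKG2 receptors on natural killer cells. Its intensities were 73394, 76960 and 76412 in the LPS samples and 135545, 121249 and 147821 with 15-HETE. The groups lay apart by far more than the spread within either, with means of 75589 ± 1920 and 134872 ± 13298 (SD, n = 3). The log2 fold change was 0.83 (SE 0.17), with an adjusted p of 0.082 in limma and 0.0040 with the intensity trend.

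H2-Q2 and H2-Q8 are heavy chains of the Q region. H2-Q2 read 37025, 28296 and 29058 in LPS and 53022, 54027 and 54469 in 15-HETE + LPS. Its 3 treated samples were nearly equal and all above the LPS samples. The log2 fold change was 0.79 (SE 0.19), with a limma adjusted p of 0.103 and of 0.0072 with the trend. H2-Q8 read 3677, 4471 and 4598 in LPS and 8020, 7792 and 7337 with 15-HETE, again without overlap. Its log2 fold change was 0.87 (SE 0.18), and the limma adjusted p was 0.082, or 0.011 with the trend. A probe that names H2-T9, H2-T22 and H2-T10 together, and is no member for that reason, read 12752, 7430 and 9806 in LPS and 25918, 23556 and 25224 in 15-HETE + LPS. Its log2 fold change of 1.35 (SE 0.24) had an adjusted p of 0.064 in limma and 0.0033 with the trend. Q and T genes are near-identical copies in part, so which of them a probe reads is uncertain.

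The classical chain H2-K1, which presents cytosolic peptides to CD8+ T cells, did not follow these 3. It read 1387157, 802932 and 839225 in LPS and 976116, 978099 and 946546 with 15-HETE. The treated samples lay inside the LPS range, and the log2 fold change was -0.02 (SE 0.26, limma adjusted p 0.979). The first LPS sample was 0.76 above the mean of the other 2 on the log2 scale. Without it the log2 fold change was 0.24, which passed with the intensity trend (limma adjusted p 0.022). This was the only 1 of the 6 fits with the trend that each left out 1 sample to call H2-K1. With all samples the trend gave a limma adjusted p of 0.977. Another classical chain, H2-D1, was read only by a probe shared with H2-Q5. That probe read 1261016, 766329 and 753928 in LPS and 1019486, 918358 and 992151 with 15-HETE. The first LPS sample was again the highest, the groups overlapped, and the log2 fold change was 0.12 (limma adjusted p 0.835). Without the first LPS sample it was 0.36, which passed with the trend (limma adjusted p 0.0042). Again this was the only 1 of 6 such fits to call the probe, and with all samples the trend gave a limma adjusted p of 0.812.

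H2-Q7 encodes Qa-2, a class I chain that can be anchored by a lipid, and H2-M3 presents formylated bacterial peptides. H2-Q7 read 1051149, 702698 and 635219 in LPS and 711815, 667972 and 802932 with 15-HETE. H2-M3 read 184362, 129727 and 143039 in LPS and 120818, 126342 and 174378 with 15-HETE. In both genes the groups overlapped and the first LPS sample was the highest of the 6. The log2 fold changes were -0.10 (SE 0.25) for H2-Q7 and -0.12 (SE 0.24) for H2-M3.

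The remaining 10 class I chains were not above the olfactory level, and none of them passed limma with or without the trend. H2-M2 differed from the rest of them in its LPS samples, which read 5566, 5498 and 5483 against 1409, 2970 and 4092 with 15-HETE. The treated samples were all lower but spread widely. The log2 fold change was -1.10 (SE 0.40, limma adjusted p 0.208, or 0.079 with the trend). With the trend and without the third treated sample the limma adjusted p was 0.044, the only 1 of 6 such fits to call it. H2-T3, the thymus leukaemia antigen, read 377, 389 and 216 in LPS and 121, 207 and 171 with 15-HETE, also lower without overlap (log2 fold change -0.96, SE 0.33, limma adjusted p 0.186). The chains known from vomeronasal neurons, H2-M1, H2-M9, H2-M10.1, H2-M10.4, H2-M10.6 and H2-M11, had log2 fold changes between -1.01 (H2-M11) and 0.79 (H2-M10.6), with overlapping groups in all 6. H2-Q10, a secreted class I chain of liver, and H2-Bl had values of 0.50 (SE 0.62) and 0.31 (SE 0.75), each with 1 high sample among the treated ones, at 3744 and 1335.

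The genes that cut, carry and load class I peptides were all above the olfactory level, and 6 of 8 had a log2 fold change above 0, with a median of 0.29. Tapbp, or tapasin, bridges the Tap transporter and the empty class I chain. It read 46450, 30888 and 30953 in LPS and 78392, 63178 and 70834 with 15-HETE. Every treated sample was above every LPS sample although the first LPS sample was high, and means were 36097 ± 8966 and 70801 ± 7607 (SD, n = 3). The log2 fold change was 0.99 (SE 0.23), with a limma adjusted p of 0.101 and of 0.0087 with the trend. Tapbpl, or TAPBPR, a related peptide editor, went the other way, from 22520, 16519 and 15580 in LPS to 14700, 15371 and 14308. These groups did not overlap either, but the log2 fold change was -0.28 (SE 0.21, limma adjusted p 0.502).

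Psmb8 and Psmb10 encode catalytic subunits of the immunoproteasome. Psmb8 read 40560, 59112 and 62263 in LPS and 91369, 83164 and 88600 with 15-HETE. Psmb10 read 12424, 16872 and 20536 in LPS and 25594, 22233 and 24672 with 15-HETE. Neither gene had overlapping groups, and in both the first LPS sample was the lowest. The log2 fold change of Psmb8 was 0.72 (SE 0.23, limma adjusted p 0.159, or 0.026 with the trend), and 3 of 6 fits with the trend that each left out 1 sample called it. That of Psmb10 was 0.57 (SE 0.24, limma adjusted p 0.259, or 0.084 with the trend).

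The transporter subunits Tap1 and Tap2 and the trimming peptidase Erap1 overlapped between the groups. Tap1 read 45605, 24357 and 28755 in LPS and 35953, 33182 and 38861 with 15-HETE (log2 fold change 0.18, SE 0.27, limma adjusted p 0.756). Tap2 read 18235, 12492 and 12629 in LPS and 17180, 17985 and 17539 with 15-HETE (0.30, SE 0.22, limma adjusted p 0.480). Erap1 read 55339, 42861 and 43724 in LPS and 60494, 52509 and 58709 with 15-HETE (0.28, SE 0.19, limma adjusted p 0.464). In all 3 the first LPS sample stood above the other 2. Without it 13 of the 40 genes, these 3 among them, were called higher with the intensity trend and 1, B2m, lower. The same fit called 7.86% of all probes higher and 7.69% lower. Tap1, Tap2, Erap1 and B2m were each called in only 1 of the 6 fits with the trend that left out 1 sample.

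B2m, the light chain shared by all class I molecules, read 1698875, 1864801 and 1856100 in LPS and 1594178, 1645501 and 1563917 with 15-HETE. All treated samples were below all LPS samples, by a log2 fold change of -0.17 (SE 0.16, limma adjusted p 0.602). B2m stood between ranks 35 and 79 of 33012 probes, where quantile normalization gives each rank 1 fixed value.

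**Figure D2:**
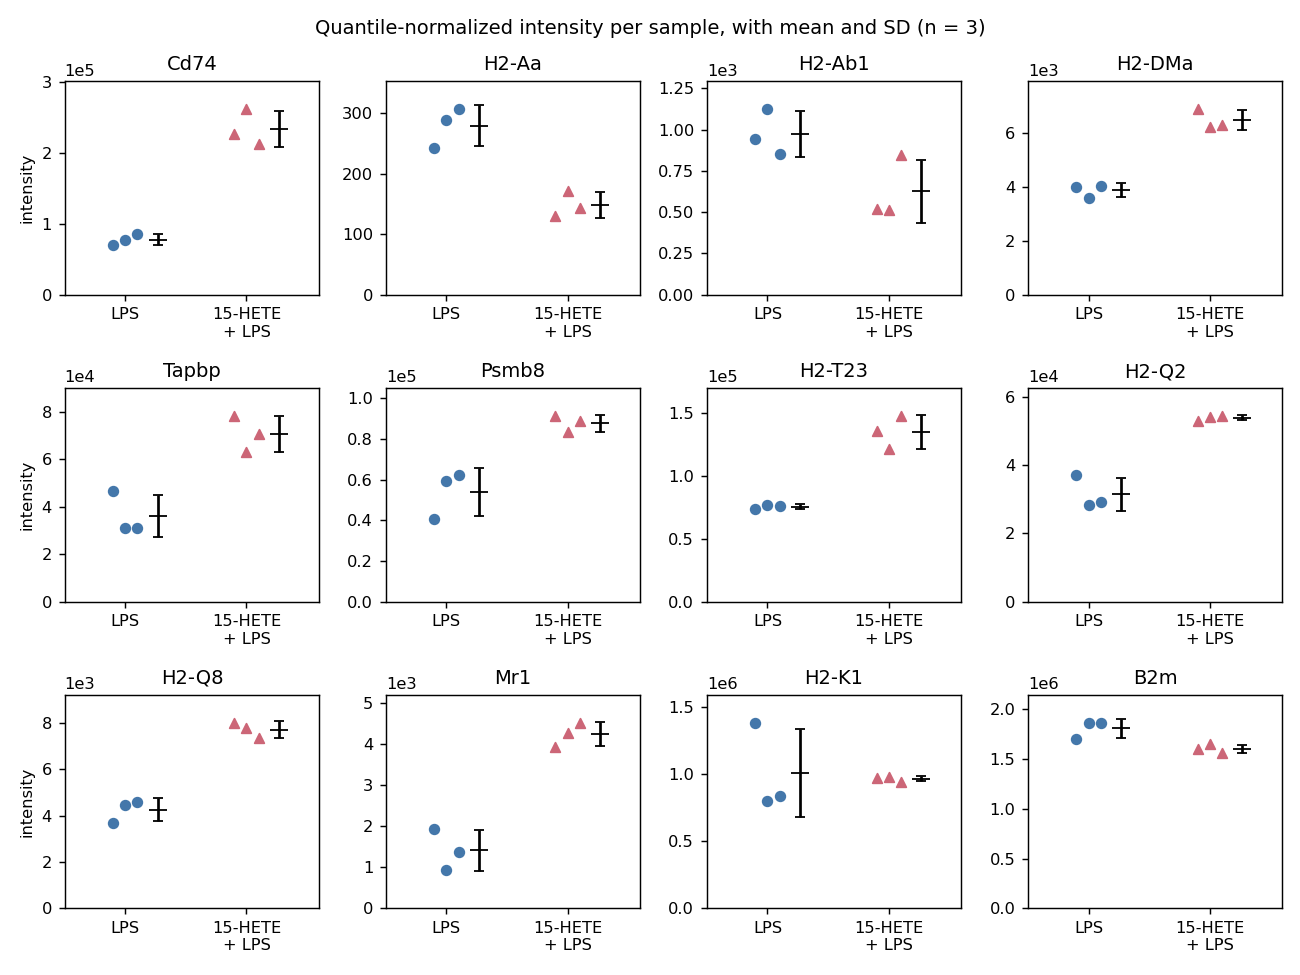
Quantile-normalized intensity (linear axes from 0) of 12 genes in the 3 LPS samples (circles) and the 3 15-HETE + LPS samples (triangles), with the mean and SD beside them. Cd74 moved from between 70248 and 85886 to between 212229 and 261584, H2-K1 in 15-HETE + LPS lay within its LPS range, and H2-Aa, H2-Ab1 and B2m were lower in all treated samples.

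Both class I-like genes outside the MHC had a mean level not above the olfactory level, and they went in opposite directions. Mr1, which presents vitamin B metabolites to MAIT cells, read 1931, 939 and 1369 in LPS and 3935, 4287 and 4534 with 15-HETE. The treated samples were close together and clear of the LPS samples, though the mean log2 level of the gene was not above the olfactory level. Its log2 fold change of 1.65 (SE 0.29) was the largest of the 40, with a limma adjusted p of 0.063 and of 0.0083 with the trend, and all 6 fits with the trend that left out 1 sample called it. Cd1d1, which presents lipids to NKT cells, read 536, 877 and 449 in LPS and 351, 306 and 337 with 15-HETE, lower without overlap (log2 fold change -0.85, SE 0.29, limma adjusted p 0.182).

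On the class II side, Cd74 rose by a factor of 3.01. The invariant chain blocks the groove of new class II molecules and directs them to endosomes. Cd74 read 70248, 76460 and 85886 in LPS and 225810, 261584 and 212229 with 15-HETE, with means of 77531 ± 7874 and 233208 ± 25495 (SD, n = 3). The lowest treated sample was above the highest LPS sample by more than either SD. The log2 fold change was 1.59 (SE 0.19), with a limma adjusted p of 0.037, and of 0.00047 with the intensity trend. Leaving out any 1 sample kept it between 1.5 and 1.66, while the limma adjusted p, with fewer samples, was then 0.071 to 0.185.

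The class II chains that Cd74 accompanies did not rise with it. H2-Aa and H2-Ab1 are the chains of the I-A molecule. H2-Aa read 243, 289 and 307 in LPS and 130, 171 and 144 with 15-HETE. H2-Ab1 read 943, 1125 and 854 in LPS and 520, 512 and 847 with 15-HETE. Both were lower in every treated sample than in any LPS sample, and H2-Ab1 only by a small gap. Their log2 fold changes were -0.92 (SE 0.20, limma adjusted p 0.089, or 0.115 with the trend) and -0.67 (SE 0.27, limma adjusted p 0.241). All of these values were far below the olfactory level, so neither chain was measured clearly above dim signal in either group.

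H2-Ea and H2-Eb1 form the I-E molecule. H2-Ea read 90, 535 and 441 in LPS and 166, 287 and 868 with 15-HETE, and H2-Eb1 896, 309 and 506 against 656, 857 and 511. Both overlapped widely, at log2 fold changes of 0.32 (SE 0.88) and 0.34 (SE 0.43), and were not above the olfactory level. How the probes of polymorphic chains match the alleles of these cells was not tested.

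H2-DMa, a chain of the DM molecule that exchanges the invariant chain remnant for peptide, was the class II chain that was higher. It read 3994, 3596 and 4037 in LPS and 6874, 6205 and 6278 with 15-HETE, without overlap. The log2 fold change was 0.74 (SE 0.17), with a limma adjusted p of 0.097 and of 0.019 with the trend, but 1 of 6 fits with the trend that left out 1 sample called it. The probe that names both H2-DMb2 and H2-DMb1, partners of H2-DMa, read 12349, 32063 and 28875 in LPS and 13129, 14585 and 16586 with 15-HETE. These groups overlapped through the first LPS sample, and the log2 fold change was -0.62 (SE 0.39, limma adjusted p 0.434). Without that sample it was -1.05, which passed with the trend (limma adjusted p 0.00019). This was the only 1 of 6 such fits to call the probe, and with all samples the trend gave a limma adjusted p of 0.276. H2-Oa and H2-Ob form the DO molecule, an inhibitor of DM. H2-Ob read 5394, 4374 and 4074 in LPS and 4079, 4761 and 4723 with 15-HETE, at -0.02 (SE 0.20), and H2-Oa had a log2 fold change of 0.25 (SE 0.47) at dim levels.

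Ifi30, or GILT, reduces disulfide bonds of antigens in endosomes. It read 354315, 389023 and 415075 in LPS and 399704, 391498 and 385777 with 15-HETE. The treated samples lay within the LPS range, at a log2 fold change of 0.03 (SE 0.17). Ciita, which switches class II genes on, read 1722, 367 and 1099 in LPS and 509, 256 and 1401 with 15-HETE. Its samples scattered over the same range in both groups and were not above the olfactory level (log2 fold change -0.64, SE 0.80, limma adjusted p 0.697). The RFX subunits, which bind the promoters of class I and class II genes, all overlapped. Rfxap read 10444, 19830 and 17035 in LPS and 21857, 23044 and 18688 with 15-HETE (0.47, SE 0.28, limma adjusted p 0.413). Rfx5 and Rfxank had log2 fold changes of 0.44 (SE 0.36) and 0.11 (SE 0.19). H2-Ke6, a steroid dehydrogenase gene that lies in the MHC and is no antigen-presenting chain, was at -0.05 (SE 0.19).

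Taken as whole classes, class I and class II chains did not separate. The median log2 fold change of the 16 class I chains was 0.01, with 8 above 0 and 8 below, and that of the 7 class II chains was 0.25, with 4 above and 3 below. Over all probes the median was 0.01. The difference of the 2 medians was -0.24. Per sample, the median over the class I chains of the log2 level against the LPS mean was 0.13, -0.07 and -0.05 in LPS and 0.13, -0.11 and 0.00 with 15-HETE. For class II chains it was 0.05, -0.07 and -0.04 in LPS and -0.32, 0.06 and 0.04 with 15-HETE. Samples of both groups overlapped for both classes, as the plot of class medians shows. Class I minus class II was 0.08, -0.01 and -0.02 per LPS sample and 0.44, -0.16 and -0.04 per treated sample, so its mean was 0.06 higher with 15-HETE. This differs in sign from the difference of the median fold changes, and no direction between the classes was settled. Of these chains, 10 in class I and 5 in class II were not above the olfactory level. For the 6 class I chains above it, the median was 0.27, -0.14 and -0.09 in LPS and 0.38, 0.34 and 0.50 with 15-HETE. Of these 6, 3 had a log2 fold change above 0 and 3 below. For the 2 class II chains above it, the median was 0.14, -0.09 and -0.05 against 0.33, 0.37 and 0.37. Of these 2, H2-DMa was above that level in the treated samples alone.

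**Figure D3:**
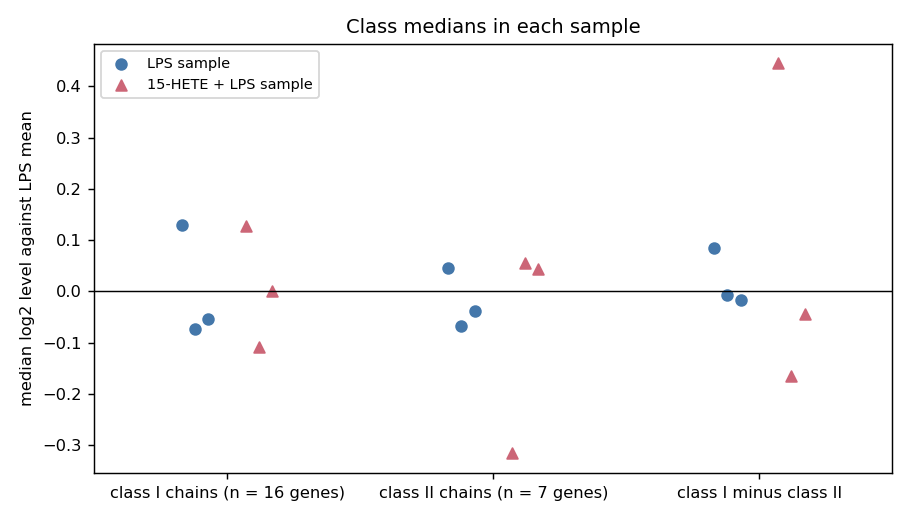
Median over the genes of a class of the log2 level against the gene's mean in LPS, for each of the 3 LPS samples (circles) and 3 15-HETE + LPS samples (triangles), for 16 class I chains, 7 class II chains and the difference of the classes. The treated samples surround 0 in both classes, and 1 treated sample has the lowest class II median, -0.32, and the highest difference, 0.44.

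Other genes of the pathway were read from lists. Of 7 endoplasmic reticulum chaperones and loading genes, Sel1l, a part of the degradation machinery, rose (6373, 8294 and 5459 in LPS against 21639, 19091 and 18174, log2 fold change 1.57, limma adjusted p 0.049). Calreticulin and calnexin, chaperones that hold class I chains before and during loading, were lower in all treated samples. Calreticulin (Calr) read 449084, 365767 and 387310 in LPS and 202591, 213879 and 238603 with 15-HETE, a log2 fold change of -0.87 (limma adjusted p 0.082, or 0.0064 with the trend). Calnexin (Canx) read 1242888, 763655 and 781126 in LPS and 484872, 525016 and 500961 with 15-HETE, at -0.85 (limma adjusted p 0.140, or 0.034 with the trend). The disulfide isomerase Pdia4 went the other way, at 0.70 (limma adjusted p 0.174, or 0.039 with the trend). In the 6 fits with the trend that each left out 1 sample, the call was made 6 times for Sel1l and Calr, 2 times for Canx and 1 time for Pdia4. The median of the 7 genes was 0.31. Default limma called 1 of the 7 higher and 0 lower, beside 0.509% and 0.442% of all probes. The trend called 2 of the 7 higher and 2 lower, and 3 were higher and 3 lower without overlap. Among array probes above the olfactory level, where all 7 lay, the trend called 9.63% higher and 12.1% lower. The shares without overlap were 25.4% higher and 28.1% lower there.

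Of 5 proteasome partners, limma called 0 in either direction, with 2 higher and 1 lower at an unadjusted p under 0.05. The array shares for the latter were 8.62% and 11%. With the trend 1 was called each way, beside 9.63% higher and 12.1% lower of probes above the olfactory level, where all 5 lay. Psmb5, the constitutive subunit that Psmb8 replaces, had a log2 fold change of 0.95 (limma adjusted p 0.167, or 0.036 with the trend). Psme3, a nuclear proteasome activator, had one of -0.77 (limma adjusted p 0.110, or 0.0089 with the trend). With 1 sample left out, the trend called Psmb5 in 3 of 6 fits and Psme3 in all 6. Of 7 costimulation genes, Cd86, which signals to T cells through CD28, rose from 842, 1050 and 1172 in LPS to 3664, 3886 and 2485 with 15-HETE (1.70, limma adjusted p 0.0498), at levels not above the olfactory one. Cd40, the receptor for T cell help, was at 0.81 (limma adjusted p 0.080, or 0.0032 with the trend). Of the 7, limma called 1 higher and 0 lower, beside 0.509% and 0.442% of all probes. The trend called 2 higher and 0 lower, beside 3.87% and 4.96%.

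The unadjusted counts of the next 4 lists stand beside the same array shares of 8.62% higher and 11% lower. Of 8 endosomal genes limma called 0, with 2 higher and 1 lower at an unadjusted p under 0.05. Their lowest p values belonged to Cd82, a tetraspanin, at 0.69 (limma adjusted p 0.125, or 0.011 with the trend), and the protease Ctsh at 0.68 (limma adjusted p 0.130), and their median was -0.12. Of 9 interferon gamma signalling genes limma called 0, with 0 higher and 1 lower at an unadjusted p under 0.05, at a median of -0.11. Irf8, a transcription factor of interferon responses, was at -0.50 (limma adjusted p 0.203, or 0.041 with the trend), and the kinase Jak1 at 0.37 (limma adjusted p 0.297). With 1 sample left out, the trend called Cd82 in 4 of 6 fits and Irf8 in 1 of 6. Of 8 trimming and cross-presentation genes limma called 0, with 1 higher and 1 lower at an unadjusted p under 0.05. Tpp2, a cytosolic peptidase, was at 1.58 (limma adjusted p 0.057, or 0.0047 with the trend) and Npepps, an aminopeptidase, at -0.53 (limma adjusted p 0.229). Of 6 partners of Ciita at class II promoters, limma called 0 with or without the trend and 0 at an unadjusted p under 0.05. The lowest p values were those of Nfyc, an NF-Y subunit, at -0.32 (limma adjusted p 0.352) and the deacetylase Hdac2 at 0.20 (limma adjusted p 0.541).

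Since B cells and dendritic cells carry much Cd74 and class II, their markers were read beside these results. Of 7 macrophage markers 6 were above the olfactory level and limma called 0 with or without the trend. At an unadjusted p under 0.05, 1 was higher, beside 8.62% of probes. Of the 7, 6 had a log2 fold change above 0, and 3 were higher and 0 lower without overlap. Those shares were 13.7% and 16.3% of all probes, and 25.4% and 28.1% of probes above the olfactory level. All 5 dendritic cell markers and all 3 T cell markers were not above that level, nor were the B cell markers Cd79a, Cd79b, Ms4a1 and Pax5. The fifth gene of the B cell list, Blnk, read 270118, 197880 and 191506 in LPS and 122174, 137151 and 135647 with 15-HETE, lower in all treated samples (log2 fold change -0.72, limma adjusted p 0.139, or 0.020 with the trend, called in 3 of 6 fits with the trend that left out 1 sample). The summed intensity of the B cell list was 193926 to 273002 in LPS and 127611 to 139121 with 15-HETE, nearly all of it Blnk. Without Blnk it was 2421 to 2884 in LPS and 5437, 1969 and 2717 in the treated samples, highest in the first of these. The sum of the dendritic cell list was 5612 to 8366 and 4743 to 6515. All samples were cultures of the same macrophage-like line, and the lists are named only for the cells whose markers they hold. The sums are therefore readings of cultures of that line and not measured shares of cell types. Whether any other cell type was present, or had a part in the result for Cd74, was not tested.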

How the data were processed

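The authors deposited quantile-normalized linear intensities from a chemiluminescence reader. Sorted values differed by at most 0.224% between samples. Background correction is not given in the sources used here, and S/N and flag values were not used here.

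After a log2 transform, limma 3.58.1 (R 4.3.3) compared the groups two-sided on all 33012 probes with lmFit and eBayes. P-values were adjusted over the whole array by Benjamini-Hochberg, and a probe was called below an adjusted p of 0.05. The number of arrays, 3 per group, limits the precision. Gene names came from the platform annotation, with the brightest probe of a gene taken. All 40 genes were found in the reference by gene id, with 0 symbols changed. The script was tested on simulated data with 200 probes changed.

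The members and lists were chosen with earlier results of these data known. Every member was named, with full values for the classical chains, loading genes and transactivators, called genes and the non-classical genes with the lowest p. Of each pathway list, called genes were named, or the 2 with the lowest p. The 4 printed promoters and the letters AANNGAAA were chosen after values or windows had been seen. The class medians have no test, since genes are not replicates. Alternatives were other priors, with statmod 1.5.0 for the robust one, the methods' t-test, normalizations, an offset, filters on dim probes, a replicate block and leaving out each sample.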

Additional observations from a re-analysis of the deposited data

How the results depend on the processing

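The count of members called higher (1, Cd74) was 8 with the intensity trend, 7 among probes above the array median, 7 above the olfactory level, 2 with an offset of 100, and 0 with the methods' t-test over all probes. It was 0 in every limma fit without 1 sample. With the trend, chosen as a base after seeing the data, leaving out 1 sample gave 5 to 13 higher and 0 to 1 lower. The array counts (168 higher, 146 lower) were 1279 and 1638 with the trend, 100 and 62 with a robust prior, 0 and 0 with the methods' t-test over all probes, 345 and 358 with the offset, 1207 and 1589 above the array median, 1326 and 1637 above the olfactory level, 0 and 0 without 1 sample, and 535 to 2595 and 688 to 2540 with the trend without 1 sample. Deviations from the group means correlated at -0.024, 0.0035 and 0.024 between the same replicate numbers, and at -0.054 to 0.046 between unlike numbers. No pairing was seen in these values. Whether the same numbers shared a culture or a processing day was not tested. The replicate block gave 0 members and 0 array probes either way, and with the trend 8 members higher, 1058 array probes higher and 1266 lower. The class I median (0.010) was -0.0096 with cyclic loess, 0.50 above the array median, 0.38 above the olfactory level, 0.15 with accessory genes and -0.17 to 0.31 without 1 sample. The class II median (0.25) was -0.023 above the array median and -0.056 to 0.35 without 1 sample. Class I minus class II (-0.24) was 0.53, 0.028 and 0.0079 under those 2 filters and with accessory genes, and -0.40 to 0.32 without 1 sample, so its sign was not settled. The filters use the mean over all samples, so under the olfactory one H2-DMa entered through its treated samples alone and H2-M2 left through its own. Other causes were not tested. The mean of all probes per gene gave nothing to compare, as every member has 1 probe. Of the members, 15 changed sign in at least 1 setting, all of them genes whose difference was under its standard error. The lack of detection calls limits what can be said of the 20 members not above the olfactory level.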
